A study of Macaca mulatta with 449 samples.

Results

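The immediate early genes described here are FOS, FOSB, JUN, JUNB, EGR1, EGR2, EGR3, ARC, NPAS4 and NR4A1, 10 genes chosen by symbol. Of these 10, 7 had a row among the 30807 genes of the deposited count table of the rhesus macaque brain. They were FOS (ENSMMUG00000040100), FOSB (ENSMMUG00000014430), JUNB (ENSMMUG00000005688), EGR2 (ENSMMUG00000010256), NPAS4 (ENSMMUG00000015982), NR4A1 (ENSMMUG00000022922) and ARC (ENSMMUG00000018519). JUN, EGR1 and EGR3 were not analysed here.

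Immediate early genes are transcribed within minutes of a stimulus, without the need for new protein synthesis, and in the brain they are used as markers of recent neuronal activity. Calcium entry and kinase signalling act on factors that are already bound at their promoters, such as SRF and CREB. Most of their products are transcription factors that switch on a later set of genes, while ARC acts at the synapse itself. Their transcripts are short lived, and handling, stress and the time around death can also induce them.

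The study sampled the brains of 8 rhesus macaques, each dissected once, and the RNA-seq libraries covered 51 sub-regions in each of the 8 animals, 1 sample apiece. The labels give no treatment and no genotype. The animals, named by their number in the labels, were Rhesus 7 and Rhesus 8 (young males of 4 and 3.8 years), Rhesus 4 and Rhesus 10 (young females of 3.2 and 5 years), Rhesus 2 and Rhesus 3 (mid-aged males of 10 years) and Rhesus 6 and Rhesus 11 (mid-aged females of 10 and 9.8 years). The sub-regions comprised 31 of the cerebral cortex, in 5 lobes, and 20 others, and formed 16 region groups. Those groups are the olfactory bulb (OB), cerebral cortex, entorhinal and perirhinal cortex (PA), corpus callosum (CC), thalamus (THA), hypothalamus (HTHA), medulla oblongata (MO), pons (PON), cerebellum (CB), ventral tegmental area (VTA), substantia nigra (SN), amygdala (AMY), hippocampus (HIP), striatum (STR), globus pallidus (GP) and pituitary (PIT).

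Library totals ranged from 7784678 to 31083490 counted reads, with a median of 10698602. Levels are given as CPM, the reads of a gene relative to all counted reads of its library, with the library size scaled by the trimmed mean of M values (TMM), and they are compared between samples of a gene, never between genes. These are bulk tissues, so fewer cells of a type and less RNA per cell cannot be told apart. Because each animal was dissected once, the animal, the day and the handling cannot be told apart either. The study's methods give no time from death to harvest for each sub-region, so a sub-region and its time of harvest cannot be told apart. The libraries carried the marker transcripts of their labels in the pituitary, where 5 anterior pituitary genes summed to 37016 to 357251 CPM, and in the corpus callosum, where 5 oligodendrocyte genes summed to 90042.6 to 118153 CPM. Some libraries stood apart by their markers. In the medulla oblongata of Rhesus 6 the 5 neuron markers summed to 261 CPM against 3702 to 6932 CPM in the other 7 animals, and the oligodendrocyte markers to 92629.8 CPM, the highest of the 8. In its hypothalamus the neuron markers summed to 7263 CPM against 2957 to 4757 CPM in the others, and its 2 excitatory neuron markers to 628 CPM against 99.4 to 254.5 CPM. In the globus pallidus of Rhesus 2 the oligodendrocyte markers summed to 104784 CPM against 48737 to 72452 CPM in the others, and the neuron markers to 1108 CPM against 1877 to 2958 CPM. In the hypothalamus of Rhesus 3 the oligodendrocyte markers reached 34556 CPM against 3331 to 20212 CPM, and in the ventral tegmental area of Rhesus 2 the 4 astrocyte markers were at 1052 CPM against 2469 to 5046 CPM. Leaving out Rhesus 2 lost no call of the 7 genes in the globus pallidus or the ventral tegmental area, and the results that changed without Rhesus 3 or Rhesus 6 are given below with and without them.

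All 7 genes differed between the 51 sub-regions of the same animals. In edgeR's quasi-likelihood test with the animal as a block, the Benjamini-Hochberg adjusted p over all genes tested (FDR) ran from 1.88e-60 for JUNB to 6.2e-167 for EGR2. At an FDR below 0.05 the test called 99.8% of the 17121 genes tested, so the call itself does not set these genes apart. The sizes of the differences varied widely among the 7 genes. The highest mean over the 8 animals was 4.22-fold the lowest for JUNB, 13.7-fold for FOS, 34.4-fold for FOSB, 44.1-fold for NR4A1, 73.4-fold for NPAS4, 245-fold for EGR2 and 272-fold for ARC. In no gene did 2 sub-regions that were neighbours in its order have ranges over the 8 animals that failed to overlap. Neighbours are therefore not separated by their ranges. The ranges do not pair samples by animal, so the order within each animal was not tested.

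**Figure D1:**
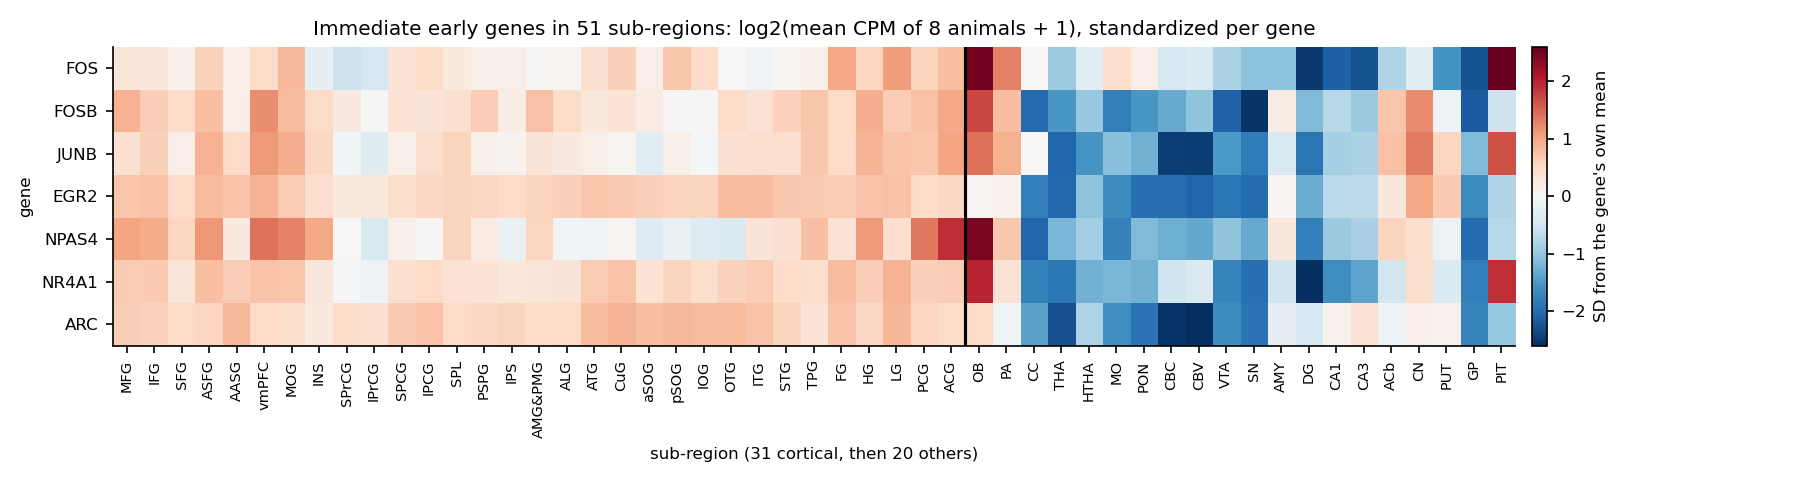
Level of each of the 7 immediate early genes (vertical axis) in 51 sub-regions (horizontal axis, 31 cortical ones left of the black line and 20 others right of it), as log2(mean CPM of 8 animals + 1) standardized within each gene, so that colours compare sub-regions of a gene and not genes. Red marks sub-regions above the gene's own mean and blue those below it, and ARC and EGR2 were blue in the thalamus and cerebellum.

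The genes did not share a single order of region groups. FOS encodes a subunit of AP-1, the dimeric activator formed by the FOS and JUN families. Its level was 66.4, 133 and 302 CPM in the pituitary and 60.7, 127 and 215 CPM in the olfactory bulb, as the lowest, median and highest of the 8 animals. In the hippocampus it was 5.16, 10.8 and 20.7 CPM. The 8 animals of the pituitary and those of the olfactory bulb overlapped each other, and all lay above all 8 of the hippocampus.

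FOSB, the FOS relative whose truncated isoform accumulates with repeated stimulation, was highest in the olfactory bulb at 4.69, 11.9 and 25.7 CPM. It was lowest in the substantia nigra at 0, 0.438 and 0.87 CPM, where no animal reached the olfactory bulb's range. FOSB had a count of 0 in 2 samples and of under 10 in 34, so its low levels rest on few reads. JUNB, a JUN family subunit of AP-1, spanned the smallest range. It was 34.3, 53.7 and 104 CPM in the pituitary and 8.6, 13.3 and 24 CPM in the cerebellum, and the animals of these groups did not overlap.

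EGR2 is a zinc finger activator of the early growth response family. Its level in the striatum was 14, 25.3 and 35.8 CPM and in the cerebral cortex 14.9, 22.9 and 33.1 CPM, with full overlap of the animals. In the thalamus it was 0, 0.137 and 0.405 CPM and in the cerebellum 0, 0.13 and 0.742 CPM, far below any striatal or cortical value. A count of 0 for EGR2 was found in 9 samples and a count of under 10 in 69. NPAS4, a bHLH-PAS factor that responds selectively to calcium influx in neurons, was 9.91, 20.5 and 42.7 CPM in the olfactory bulb against 4.02, 6.45 and 9.43 CPM in the next group, the entorhinal and perirhinal cortex. This was the only pair among the 15 neighbouring pairs of region groups, in any of the 7 genes, whose animals did not overlap. How often neighbours fail to overlap over all genes was not counted, for region groups or for sub-regions.

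NR4A1 is an orphan nuclear receptor, also known as Nur77, and takes part in the induction of POMC in pituitary corticotrophs. It was 70.4, 147 and 241 CPM in the olfactory bulb and 3.35, 6.37 and 7.56 CPM in the substantia nigra, without overlap. In the pituitary the animals split widely. NR4A1 was 566 CPM in Rhesus 10 and 367 CPM in Rhesus 8, both young, and 11.7 to 51.3 CPM in the other 6. Those 6 include the other young animals, Rhesus 4 at 23.4 CPM and Rhesus 7 at 22.8 CPM. ARC, the synaptic effector that promotes the removal of AMPA receptors from the membrane, was 47.2, 74.1 and 110 CPM in the cerebral cortex and 28.3, 35.5 and 54.6 CPM in the hippocampus. In the cerebellum it was 0.124, 0.484 and 0.666 CPM and in the thalamus 0.328, 1.03 and 1.97 CPM, both far below the cortical range.

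**Figure D2:**
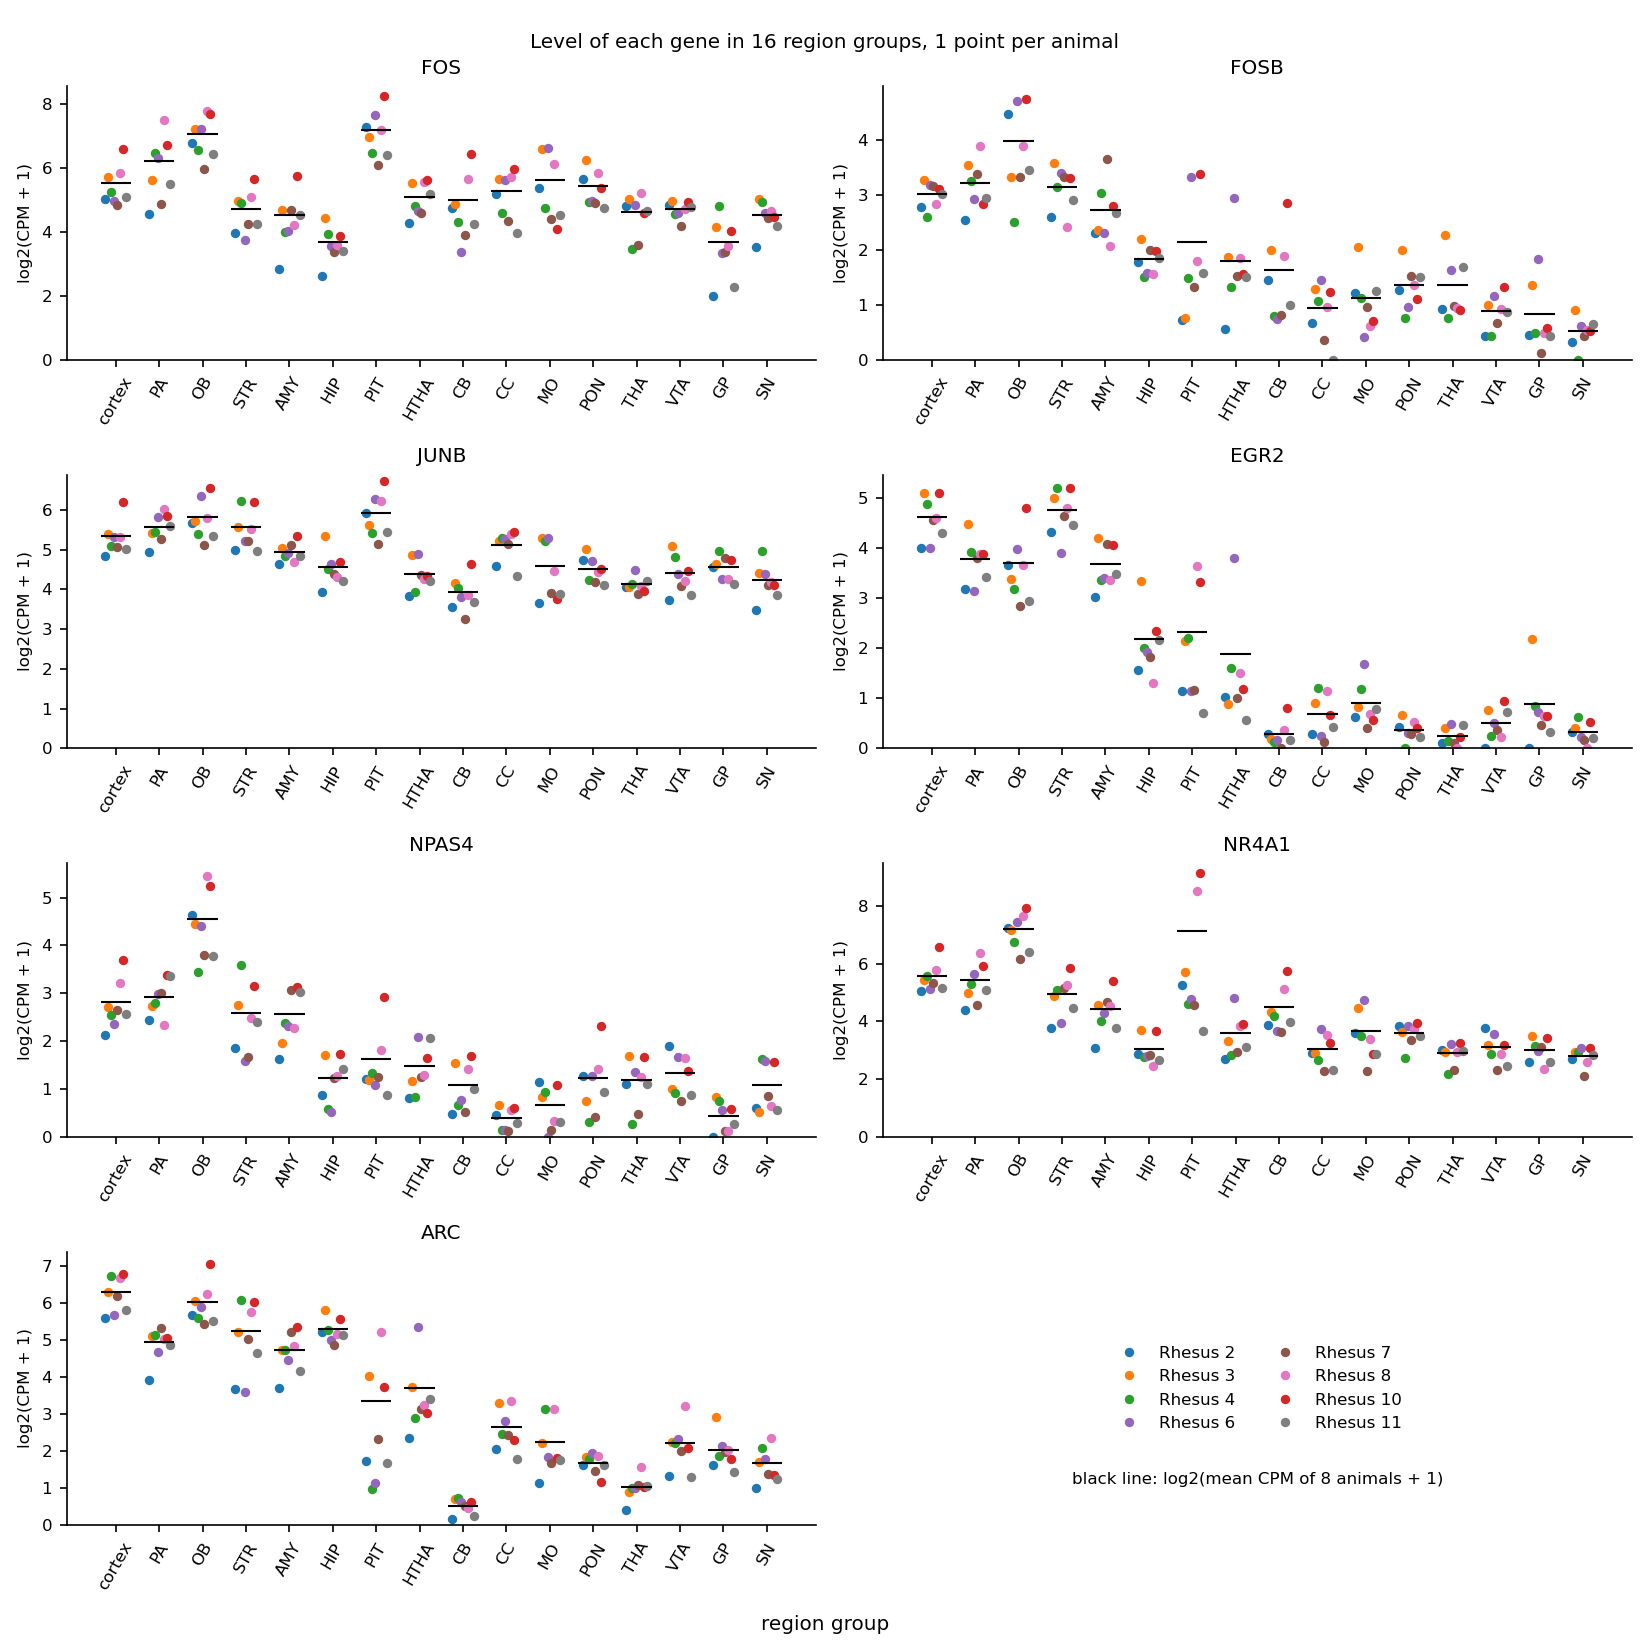
Level of each immediate early gene in 16 region groups (horizontal axis) as log2(CPM + 1) (vertical axis), with 1 point per animal (n = 8), averaged over the group's sub-regions within the animal, and a black line at log2 of the mean CPM of the 8 animals plus 1. As means of the 8 animals ARC was 76.9 CPM in the cerebral cortex and 0.438 CPM in the cerebellum, while JUNB ran from 59.9 CPM in the pituitary to 14.3 CPM in the cerebellum.

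Each region group was next compared with the mean of the other 15, on counts summed within each animal. Of the 112 pairs of a gene and a region group, 39 were called higher and 49 lower at an FDR below 0.05 by edgeR with the animal as a block, or 34.8% and 43.8%. Over all 16829 genes tested, 32% of such pairs were higher and 31.1% lower. The 7 genes moved together, upwards, in the olfactory bulb and in the entorhinal and perirhinal cortex. In the olfactory bulb all 7 were higher, where 33% of all genes were, with log2 differences from 1.06 (SE 0.12) for JUNB to 3.84 (SE 0.15) for NPAS4 and a median of 2.87 against -0.01 over all genes. In the entorhinal and perirhinal cortex all 7 were also higher, against 31.5% of all genes, from 0.82 (SE 0.12) for JUNB to 2.95 (SE 0.20) for EGR2, with a median of 1.95.

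The 7 genes were all lower in the substantia nigra and the globus pallidus. The substantia nigra had log2 differences from -0.66 (SE 0.23) for FOS to -3.05 (SE 0.52) for EGR2, and 29.8% of all genes were lower there. In the globus pallidus they ran from -0.31 (SE 0.14, FDR 0.0398) for JUNB to -2.68 (SE 0.43) for NPAS4, against 31.8% of all genes. As means of the 8 animals, the oligodendrocyte markers summed to 64034 CPM in the globus pallidus, 24545 CPM in the substantia nigra and 3052 CPM in the cortex, and the neuron markers to 2194, 6518 and 10512 CPM. The part of these markers in the lower levels was not tested. The calls of JUNB in the globus pallidus and NPAS4 in the substantia nigra were the weakest. JUNB was lost without any one of Rhesus 3, 6, 8, 10 and 11, and NPAS4 (-0.82, FDR 0.0253) without any one of Rhesus 2, 3, 8, 10 and 11. Rhesus 3 had the highest EGR2 and ARC levels of the globus pallidus, 3.55 and 6.54 CPM, against at most 0.787 and 3.39 CPM in the other animals.

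The cerebral cortex and striatum gave large differences for EGR2 and ARC. In the cortex 6 of the 7 genes were higher, against 35.4% of all genes, led by EGR2 at 3.93 (SE 0.15) and ARC at 3.51 (SE 0.15). FOS was at 0.38 (SE 0.19, FDR 0.0707) and was not called. In the striatum 6 were also higher, against 28.2% of all genes, with EGR2 at 4.07 (SE 0.16) and ARC at 2.29 (SE 0.17), and FOS was lower, at -0.51 (SE 0.21, FDR 0.033). The FOS call in the striatum was lost without any one of Rhesus 2, 3, 6, 8 and 11.

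The pituitary split the 7 genes. FOS (2.17, SE 0.16), NR4A1 (2.71, SE 0.20), JUNB (1.18, SE 0.12) and EGR2 (1.15, SE 0.25) were higher, 4 of 7, where 43.2% of all genes were higher. FOSB (0.47, FDR 0.0864), NPAS4 (0.15, FDR 0.612) and ARC (0.04, FDR 0.872) were not called. NR4A1 stayed called without Rhesus 10 (2.08) or without Rhesus 8 (2.19), but each run kept the other animal with a high level. No run left out both, so the call was not tested without them. EGR2 was at 0.62 (FDR 0.0421) without Rhesus 8, and with limma on mean log2 values it was at 0.12 (FDR 0.524) and not called. FOSB was at 0.09 without Rhesus 10 and 0.22 without Rhesus 6, and was called without Rhesus 3 (0.70, FDR 0.0138) or Rhesus 7 (0.58, FDR 0.0488). ARC, at 35.8 CPM in Rhesus 8, was called lower without that animal, at -0.55 with an FDR of 0.0419. It was also called lower with all 8 animals by limma on mean log2 values, at -0.63 with an FDR of 0.00293, so no direction can be given for ARC in the pituitary. The anterior pituitary markers summed to 40816.3 CPM in Rhesus 8 and 39160.5 CPM in Rhesus 10, near the low end of their range (37016 CPM in Rhesus 7), and the neuron markers to 477.6 and 428.5 CPM, within the range of the other animals. The part of these markers in the NR4A1 levels was not tested.

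The amygdala and hippocampus split the genes. In the amygdala EGR2 (2.85), ARC (1.82), NPAS4 (1.55) and FOSB (1.39) were higher and FOS was lower (-0.69, SE 0.23). Over all genes 31.1% were higher in the amygdala and 32% lower. In the hippocampus ARC (2.48) and EGR2 (0.94) were higher, and FOS (-1.63), NR4A1 (-1.31) and JUNB (-0.32, FDR 0.0259) were lower. Of all genes 31.6% were higher in the hippocampus and 31.5% lower, so the counts of calls do not set these genes apart. JUNB was not called there without any one of Rhesus 2, 6 and 8, and EGR2 was at 0.15 (FDR 0.473) and not called with limma on mean log2 values. ARC and FOS therefore pointed in opposite directions in the same hippocampal libraries, with standard errors of 0.17 and 0.24.

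In the thalamus and cerebellum ARC (-3.10 and -4.42) and EGR2 (-3.42 and -3.17) were lower by the widest margins. The thalamus had 5 of the 7 genes lower, against 29.8% of all genes, and the cerebellum 4, against 38.4%. NR4A1 (0.28, FDR 0.265) and FOS (-0.26, FDR 0.253) did not pass the test in the cerebellum. FOS was at -0.55 (FDR 0.0258) in the thalamus and lost that call without Rhesus 4, 7 or 10. In the medulla oblongata NPAS4 (-1.86), ARC (-1.21), EGR2 (-1.17), FOSB (-1.12) and JUNB (-0.33, FDR 0.037) were lower, JUNB not without any one of Rhesus 2, 7, 8, 10 and 11. Of all genes 23.6% were lower in the medulla oblongata and 30.2% higher. FOS was higher there, at 0.48 (FDR 0.0347). Its level was 97.2 CPM in the library of Rhesus 6, whose neuron markers were low. It was nearly as high in Rhesus 3, at 94.2 CPM, then 68.8 CPM in Rhesus 8 and at most 40.1 CPM in the others. Without Rhesus 6 the FOS difference was 0.19 (FDR 0.468). The call was also lost without Rhesus 2, 3 or 8. Without Rhesus 6 NR4A1 in the medulla oblongata was called lower, at -0.81 with an FDR of 0.0125, against -0.56 (FDR 0.0649) with it. In the hypothalamus JUNB (-0.51) and NR4A1 (-0.71, FDR 0.0251) were lower, NR4A1 not without any one of Rhesus 2, 3 and 4. Of all genes 17.3% were lower in the hypothalamus and 22.5% higher. ARC was higher there, at 0.65 (FDR 0.0123), and its level was 39.5 CPM in Rhesus 6 against 4.14 to 12.3 CPM in the others. Without that 1 sample the difference was 0.03 (FDR 0.935). EGR2 was 12.8 CPM in Rhesus 6 and 0.48 to 2.05 CPM in the others, and its difference, 0.50 (FDR 0.166), became -0.60 (FDR 0.114) without the sample and 0.72 (FDR 0.0409, called) without Rhesus 3.

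In the other 3 groups most calls were lower. In the corpus callosum 5 genes were lower, where 38% of all genes were, and JUNB was higher (0.31, FDR 0.0235), a call lost without Rhesus 7 or 8. In the ventral tegmental area 5 were lower, against 24.4% of all genes, and in the pons 4, against 32.1%. The pons calls of JUNB (-0.35) and NR4A1 (-0.62) were the weakest, JUNB being lost without any one of Rhesus 4, 7, 8, 10 and 11 and NR4A1 without any one of Rhesus 3, 4, 6, 8 and 10.

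Inside the cerebral cortex the sub-regions differed much less. All 7 genes passed the test between the 31 cortical sub-regions (FDR 4.79e-08 for JUNB to 8.89e-36 for NPAS4), where 77.3% of the 15981 genes tested passed it. With no animal block only 4 of the 7 passed. For NPAS4, the anterior cingular gyrus had the highest cortical mean, 15.7 ± 8.91 CPM (SD, n = 8), and the inferior precentral gyrus the lowest, 2.78 ± 2.22 CPM. FOS and NR4A1 were both highest in the lingual gyrus, at 65.5 ± 39 and 63.6 ± 35.3 CPM. FOSB, JUNB and EGR2 were each highest in the ventromedial prefrontal cortex, at 10.7 ± 4.45, 49.5 ± 23.7 and 32 ± 14.5 CPM. ARC was highest in the cuneus gyrus, 105 ± 43.2 CPM, and lowest in the insula, 47.2 ± 16.6 CPM. The inferior precentral gyrus had the lowest cortical mean of 4 genes, FOSB, JUNB, NPAS4 and NR4A1.

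Between the 5 lobes, each set against the other 4, 13 of the 35 pairs were called (7 higher, 6 lower), or 37.1%, beside 31% of pairs over all genes. NPAS4 was the gene with most calls, in 4 of 5 lobes. Its level was 5.57 to 23 CPM in the limbic lobe (lowest and highest animal), 4 to 12.7 CPM in the frontal lobe and 1.07 to 5.59 CPM in the occipital lobe. The limbic and occipital ranges met only where Rhesus 10, the highest occipital animal at 5.59 CPM, touched the lowest limbic one. The log2 differences of NPAS4 were 0.90 (SE 0.09) in the limbic, 0.61 (SE 0.08) in the frontal, -0.37 (SE 0.09) in the parietal and -1.01 (SE 0.12) in the occipital lobe.

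ARC ran the other way in 2 of these lobes. It was higher in the occipital lobe, by 0.41 (SE 0.07), and lower in the frontal lobe, by -0.32 (SE 0.07). The animals overlapped, at 69.4 to 136 CPM in the occipital and 38.7 to 99.6 CPM in the frontal lobe. In the limbic lobe FOS (0.37), FOSB (0.30), JUNB (0.20) and NR4A1 (0.23) were also higher, while in the occipital lobe FOSB (-0.44) and JUNB (-0.27) were lower. FOS was lower in the temporal lobe (-0.28, FDR 0.0127). The limbic calls of JUNB (FDR 0.022) and NR4A1 (FDR 0.0261) were each lost without any one of Rhesus 2, 3 and 10, JUNB also without Rhesus 4 and NR4A1 also without Rhesus 6. With no animal block the lobes gave 3 calls.

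In the hippocampus the dentate gyrus (DG) was lower than the pyramidal fields CA1 and CA3 for most of the genes. ARC was 6.13, 16.9 and 37.6 CPM in DG, 23.2, 34.8 and 68.5 CPM in CA1 and 46.7, 51.1 and 77.3 CPM in CA3 (lowest, median and highest animal). All 8 CA3 samples lay above all 8 DG samples, while CA1 overlapped both. ARC differed by -1.13 (SE 0.27) from CA1 and by -1.64 (SE 0.27) from CA3.

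JUNB, EGR2, ARC, NPAS4 and NR4A1, 5 of the 7, were lower in DG than in CA1 and again than in CA3, and 16.5% of all 14796 genes tested were lower in each of these comparisons. They share the DG samples, so the counts are not independent. NR4A1 was 1.11, 2.67 and 7.45 CPM in DG against 4.64, 9 and 17.8 CPM in CA3, with log2 differences of -1.28 (SE 0.31) from CA1 and -1.57 (SE 0.31) from CA3. NPAS4 differed by -1.49 (SE 0.45, FDR 0.015) and -1.64 (SE 0.44, FDR 0.00814), but DG held as little as 0.148 CPM of it. FOS (-0.21 and -0.17) and FOSB (-0.46 and -0.16) were not called. NPAS4 in DG against CA1 lost its call without Rhesus 3, 10 or 11, JUNB without Rhesus 3 or 7, and EGR2 without Rhesus 3. NPAS4 in DG against CA3 lost it without Rhesus 10. With DESeq2 neither NPAS4 difference was called (-1.05, adjusted p 0.0933, and -1.17, adjusted p 0.0547), which left 4 of the 7 in each comparison. All 5 oligodendrocyte markers were also lower in DG than in CA1 (median -1.22) and CA3 (median -1.41), as were all 3 endothelial and all 3 microglial markers tested, and 3 of the 5 neuron markers were lower and 1 higher in each. Of the 5 choroid plexus markers, 4 were higher in DG than in CA1 (median 2.79) and 1 was higher than in CA3. The part of these markers in the differences was not tested. With no animal block the hippocampal comparisons gave 6 calls in place of 10. CA1 and CA3 were not told apart for any of the 7 (0 called by edgeR, largest difference -0.52 for ARC, SE 0.25), where 0.0879% of all genes were called. At an unadjusted p below 0.05, 11 of the 21 hippocampal pairs passed, and the share of all genes at that cut is not given here.

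In the striatum the caudate nucleus (CN) held more of 4 genes than the putamen (PUT), against 15.2% of all genes that were higher there. FOS was 14.9, 32.3 and 56.2 CPM in CN and 2.07, 13.9 and 34.2 CPM in PUT, and the animals overlapped. FOS (1.12, SE 0.31), FOSB (1.28, SE 0.24), NR4A1 (1.03, SE 0.28) and JUNB (0.44, SE 0.15) were higher in CN. JUNB was not called without any one of Rhesus 2, 6, 7 and 11. All 5 oligodendrocyte markers were lower in CN than in PUT (median log2 difference -1.58), all 3 choroid plexus markers tested were higher (median 2.97), and of the 5 neuron markers 1 was higher and 1 lower. The part of these markers in the differences was not tested.

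The accumbens nucleus (ACb) was lower than CN in EGR2 (-1.34, SE 0.26) and NR4A1 (-1.11, SE 0.28), 2 of 7 called, where 35.9% of all genes were called. Against PUT, ACb was higher in FOSB (0.80, SE 0.25) and NPAS4 (0.91, SE 0.35) and lower in EGR2 (-0.69, SE 0.27), 3 of 7, where 45.9% of all genes were called. EGR2 was 5.69, 14.3 and 38.1 CPM in ACb, 22.9, 39 and 46.4 CPM in CN and 11, 22.6 and 45.2 CPM in PUT, with overlap between each pair. All 5 oligodendrocyte markers were lower in ACb than in PUT (median -1.80) and all 3 choroid plexus markers tested were higher (median 2.62), while 1 of the 5 oligodendrocyte markers was lower in ACb than in CN. Their part was not tested. The call of EGR2 in ACb against PUT was lost without any one of Rhesus 3, 4, 6, 7, 8 and 11, that of NPAS4 without any one of Rhesus 2, 3, 7, 10 and 11, and that of FOSB without Rhesus 10. With no animal block the striatum gave 3 calls in place of 9.

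**Figure D3:**
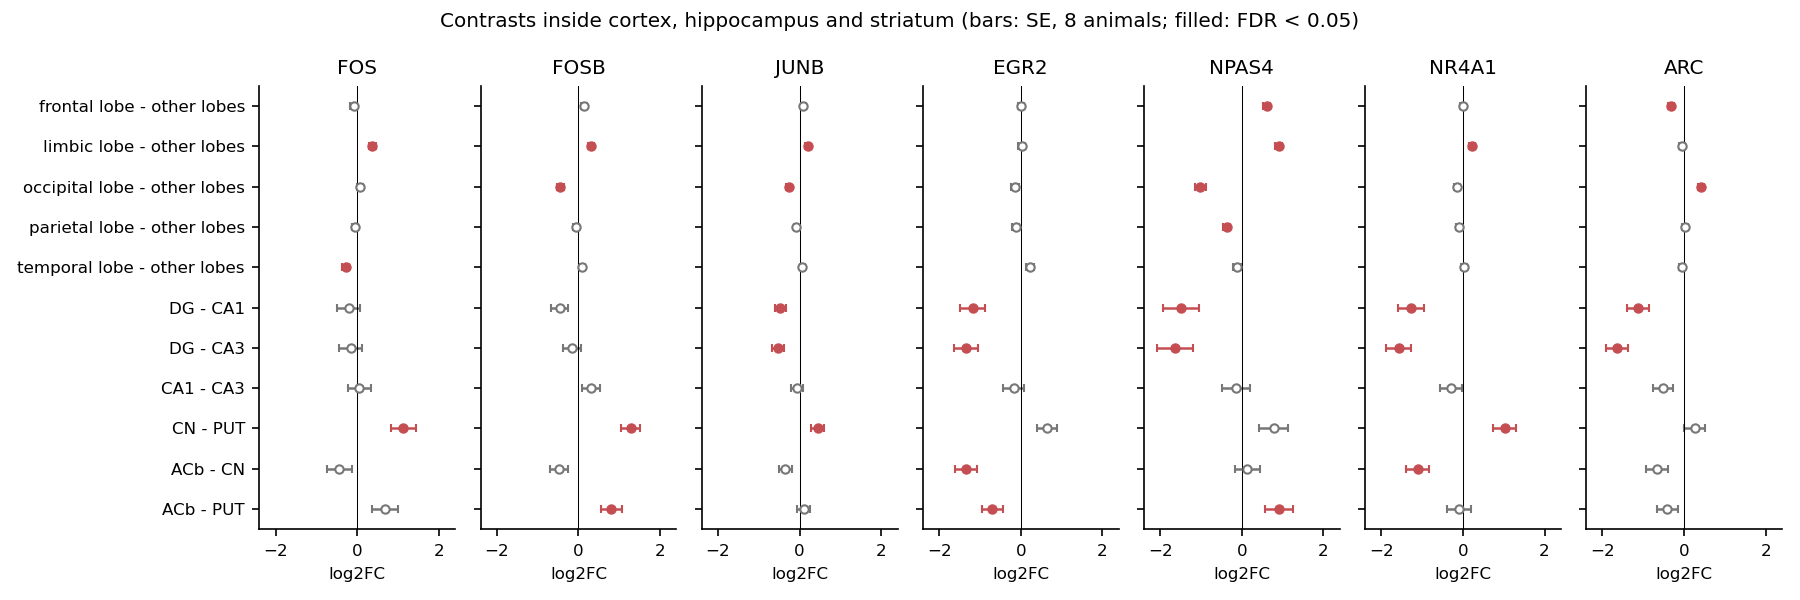
Log2 difference (horizontal axis) of each immediate early gene in each of the 5 cortical lobes from the other 4, between 3 hippocampal sub-regions and between 3 striatal ones, with bars of 1 SE from the edgeR fits of 8 animals and filled points where the FDR was below 0.05. The points of DG lay left of 0 for ARC (-1.13 and -1.64) and those of FOS near it (-0.21 and -0.17), and NPAS4 ran from 0.90 in the limbic to -1.01 in the occipital lobe.

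The vermis and the cerebellar cortex were not told apart. EGR2 and ARC did not pass the filter on low counts there, and of the other 5 genes 0 were called, beside 0.954% of all genes. Neither the 5 edgeR tests at an unadjusted p below 0.05 nor DESeq2 gave any call, a count of 0 in both. The largest difference was 0.40 for FOSB (SE 0.25).

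The animals differed as well. All 7 genes passed the test between the 8 animals, over all sub-regions (FDR 4.89e-16 for FOSB to 1.34e-59 for FOS) and within the cortex (FDR 3.28e-15 for FOSB to 1.14e-59 for JUNB). Of all genes 99.1% and 99.4% passed these tests. Nearly every gene passed, so the size of the animal differences is given below as a share of the variance.

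The variance of log2(CPM + 1) in the balanced table of sub-regions by animals was split into a share for the sub-region, a share for the animal and a remainder. Over all 51 sub-regions the sub-region took most of it for each gene, at 90.8% for EGR2, 90.1% for ARC, 76.4% for FOSB, 74.2% for NR4A1, 68.9% for NPAS4, 53.3% for JUNB and 52.0% for FOS. The animal took 3.90% for EGR2 up to 25.4% for FOS. The medians over all genes tested were 59.8% for the sub-region, 9.90% for the animal and 26.3% for the remainder.

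Within the 31 cortical sub-regions the order turned for most genes. The animal took 63.0% for JUNB, 62.1% for FOS, 59.4% for NR4A1, 56.3% for EGR2 and 54.0% for ARC, 5 genes above the 90th percentile of all genes, which was 48.9%. NPAS4 was at 30.8% and FOSB at 24.5%, beside an all-gene median of 26.7%. NPAS4 (44.7%) and FOSB (26.7%) were also the genes whose sub-region share exceeded the animal share in the cortex. In the 20 other sub-regions the animal took 2.20% (EGR2) to 12.9% (FOS), with an all-gene median of 7.69%, and the sub-region 64.5% (FOS) to 89.3% (EGR2). These all-gene values are over the 17121 genes that passed the filter on all 51 sub-regions. Within the cortex 15981 genes passed it, and the values over those were not computed.

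The remainder holds the interaction of animal and sub-region, the tissue sampling and the counting error together, since each sub-region of an animal is 1 sample. Counting error made up 2.16% to 19.1% of the remainder variance, the most for FOSB in the cortex. The median animal share of the 7 genes in the cortex was 56.3%, with a jackknife SE of 24.8 over the 8 animals, and it was 30.1% without Rhesus 10. Without that animal JUNB had 27.7%, NR4A1 30.1%, FOS 42.3%, ARC 48.1% and EGR2 52.5%, and the all-gene median was 25.3%.

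**Figure D4:**
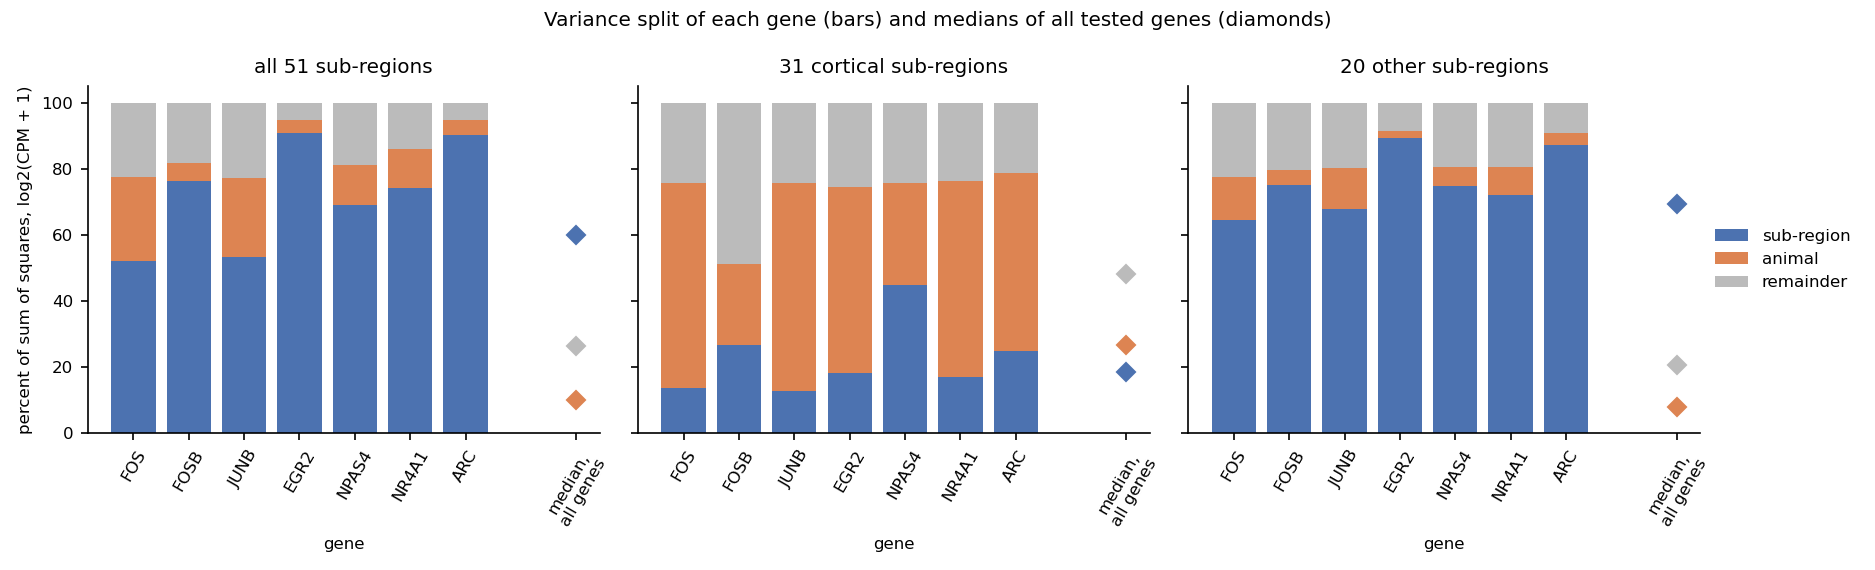
Share of the variance of log2(CPM + 1) (vertical axis, %) taken by sub-region, animal and remainder for each immediate early gene, in all 51 sub-regions, the 31 cortical ones and the 20 others, with diamonds for the medians over all 17121 genes tested. In the cortex the animal share was 54.0% to 63.0% for 5 of the genes, above the all-gene median of 26.7%.

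Rhesus 10, a young female, stood highest in the cortex for 5 of the 7 genes. NR4A1 was 94.3 CPM in Rhesus 10, averaged over its 31 cortical sub-regions, and 32.2 to 54.7 CPM in the other animals. JUNB was 72.2 CPM in Rhesus 10 and 27.4 to 41.2 CPM in the others. For both genes Rhesus 10 had the highest of the 8 levels in 31 of 31 cortical sub-regions.

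FOS was 94.9 CPM in Rhesus 10 and 27.8 to 56.4 CPM in the others, highest in 27 of 31 sub-regions. NPAS4 was 11.9 CPM against 3.38 to 8.26 CPM, highest in 22 of 31. ARC was less separated, at 110 CPM in Rhesus 10, 104 CPM in Rhesus 4, 101 CPM in Rhesus 8 and 47.2 to 76.8 CPM in the others. EGR2 had the same mean level, 33.1 CPM, in Rhesus 3 and Rhesus 10, above 14.9 to 28.4 CPM in the others. FOSB departed from the rest, with 8.63 CPM in Rhesus 3, 7.63 CPM in Rhesus 10 and the lowest level, 5.04 CPM, in Rhesus 4. At the low end Rhesus 2 had the lowest mean deviation for JUNB, ARC, NPAS4 and NR4A1, Rhesus 7 for FOS, Rhesus 6 for EGR2 and Rhesus 4 for FOSB. On the log2(CPM + 1) scale the mean deviations of the highest and the lowest animal lay 0.66 apart for FOSB (Rhesus 6 and Rhesus 4) and 1.71 apart for FOS (Rhesus 10 and Rhesus 7).

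The markers of neurons, glia and vessels in the cortex of Rhesus 10 lay among those of the other animals for most lists. On the mean log2 scale its summed neuron markers were at 13.32 within 13.22 to 13.45, astrocyte markers at 11.26 within 11.08 to 11.34, oligodendrocyte markers at 11.44 within 11.06 to 11.50, and microglial markers at 6.52 within 6.01 to 6.65. Its excitatory (9.58, others 9.64 to 9.91) and inhibitory (9.44, others 9.47 to 9.59) neuron markers were the lowest of the 8. Of 10 heat shock genes listed, 5 were matched, namely HSPA8, HSPH1, DNAJB1, HSPD1 and BAG3. HSPA1A, HSPA1B, HSPA6 and HSPB1 were among those not matched. The 5 summed to 11.76, within 11.61 to 11.92, and such a sum follows its most abundant genes, so it does not show each gene's level. Its median library total in the cortex, 10943190, lay within the other animals' 9372713 to 12676130. The part of the low neuron subtype markers in these differences was not tested.

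The same animals tended to be high inside and outside the cortex. Over the 8 animals, the mean deviation in the cortex and that in the 20 other sub-regions had a Pearson r of 0.72 (JUNB) to 0.91 (FOS), with Benjamini-Hochberg adjusted p from an exact permutation test of 0.00677 to 0.0243 over the 7 relations, two-sided. Spearman's rho was 0.57 (NPAS4) to 0.90 (JUNB), and its adjusted exact p did not pass 0.05 for NPAS4 (0.151) and NR4A1 (0.081). Without the 2 animals farthest from the median, r fell to 0.41 for NPAS4, 0.31 for NR4A1 and 0.58 for FOSB, and was 0.69 to 0.98 for the other 4. The NPAS4 and NR4A1 relations therefore rest on those animals.

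**Figure D5:**
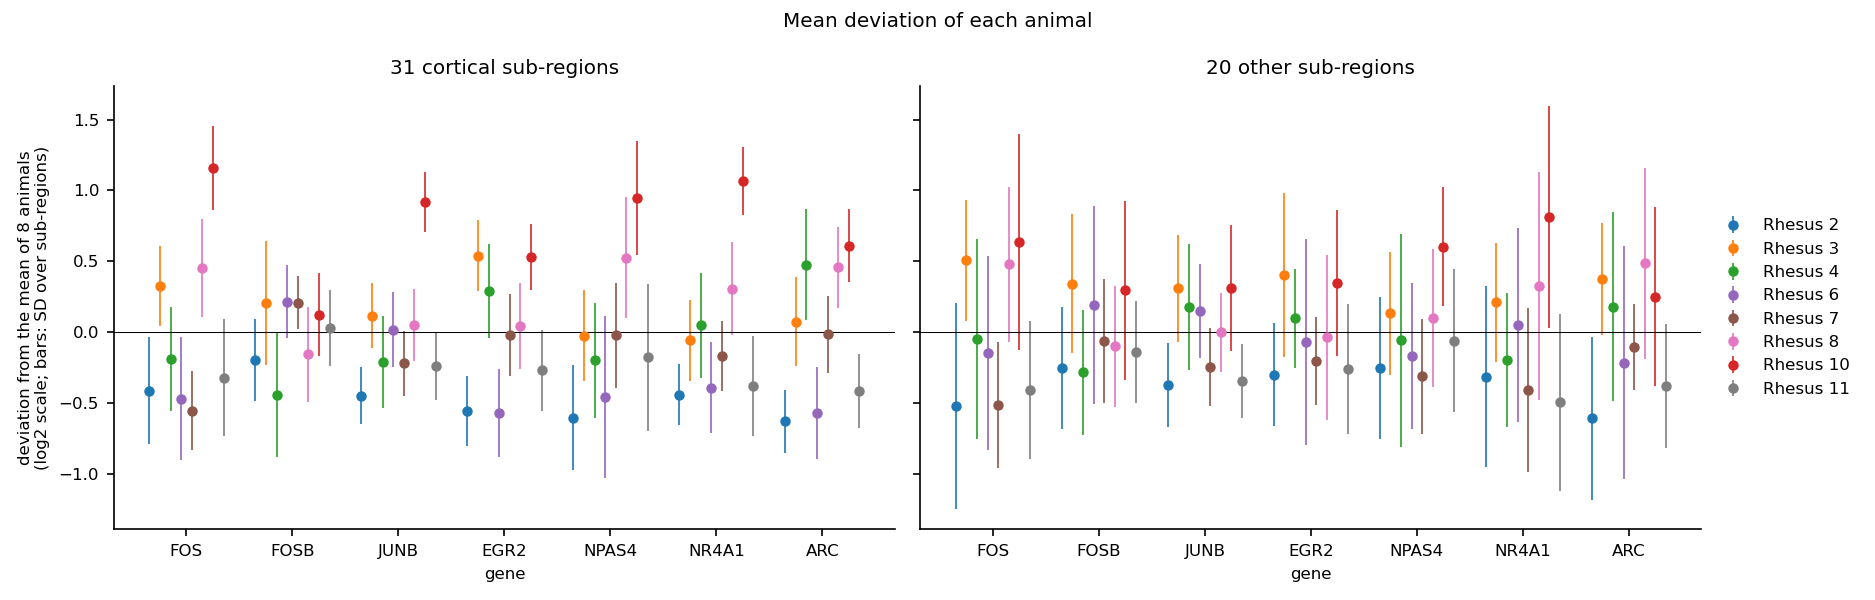
Mean deviation of each animal from the sub-region mean, on the log2(CPM + 1) scale (vertical axis), for each immediate early gene in the 31 cortical sub-regions and in the 20 others, with bars of 1 SD over sub-regions. In the cortex Rhesus 10 lay 1.16 above the mean for FOS, 1.07 for NR4A1 and 0.92 for JUNB, and 0.13 for FOSB.

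No gene was called for age or sex. Mid-aged and young animals (4 each) were compared in every region group with sex as a covariate, and 97 pairs of a gene and a region group passed the filter on low counts. At an FDR below 0.1, edgeR called 0 of the 97, beside 0.021% of pairs over all genes. An unadjusted p below 0.05 was reached by 13, of which 12 had the lower value in mid-aged animals. These pairs share the same 8 animals and are not independent. The share of all genes at that cut is not given here, for age or for sex. ARC in the cortex was 47.2, 50, 55.3 and 76.8 CPM in the mid-aged animals and 71.3, 101, 104 and 110 CPM in the young ones, so the groups overlapped only through Rhesus 3 and Rhesus 7. Its log2 difference, mid-aged minus young, was -0.73 (SE 0.19, FDR 0.591). NR4A1 in the pituitary had the largest difference among the 13, -3.00 (SE 1.04, FDR 0.525), and rests on Rhesus 8 and Rhesus 10. DESeq2 called 2 pairs, ARC in the cortex (adjusted p 0.0574) and NR4A1 in the striatum. For sex 0 of 97 pairs were called, beside 0.106% over all genes, with 3 at an unadjusted p below 0.05 and 1 called by DESeq2, FOSB in the pituitary. Without Rhesus 7 edgeR called 2 pairs in each comparison. Rhesus 10, the highest for several genes in the cortex, is 1 of the 4 young and 1 of the 4 female animals.

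The genes varied together more in some ways than in others. Over the 51 sub-region means, the 21 pairs of genes had Pearson r of 0.32 (FOS and ARC) to 0.93 (EGR2 and ARC), with a median of 0.78. Over the remainders of all samples, after the sub-region and animal means were taken off, r was 0.10 to 0.65 with a median of 0.43. In the cortex the sub-region means of ARC and NPAS4 ran against each other (r = -0.52 over 31 sub-regions), while JUNB and NPAS4 had r = 0.87. These correlations describe values from the same libraries and animals and carry no test. The largest positive departures of the mean standardized level from its sub-region and animal means were in the putamen of Rhesus 4 (1.09), the hypothalamus of Rhesus 6 (0.99) and CA1 of Rhesus 3 (0.79), and the largest negative ones in the medulla oblongata of Rhesus 10 (-1.03) and the putamen of Rhesus 11 (-0.83).

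The genes whose sub-region means followed the mean of the 7 most closely were RAI1 (r = 0.92), TRAF5 (0.90), WDR86, ADGRD1, R3HDM2, PTGS2 (0.89), RCOR2, KLF10, DGKA and ADAMTS15 (0.87), over 51 sub-regions. Those whose remainders followed it most closely were SIK1 (0.58), IER2 (0.56), NR4A3 (0.51), DUSP6 (0.45), MIDN, CYR61, STAT6, ETV5, BHLHE40 and PER1 (0.41). SIK1, IER2, NR4A3, CYR61 and PER1 belong to the list of other rapid response genes, and DUSP6, a phosphatase of ERK, to the delayed ones. The median remainder r was 0.31 for 22 other rapid response genes, 0.17 for 12 delayed response genes, 0.11 for 14 upstream factors and kinases and -0.05 for 5 heat shock genes, beside 0.00 over all 17121 genes.

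The wider lists of response genes were read in the same comparisons. Among 21 other rapid response genes tested, 17 were higher and 1 lower in the olfactory bulb, where 33% and 31.5% of all genes were. In the entorhinal and perirhinal cortex 15 were higher and 1 lower, against 31.5% and 29.9% of all genes. In the striatum 4 were higher and 8 lower, against 28.2% and 32.4%, and in the cortex 11 were higher and 5 lower, against 35.4% and 35%. The difference between regions was not tested. SIK1, a salt-inducible kinase, was at 1.92 in the olfactory bulb and 2.07 in the pituitary. NR4A3, the relative of NR4A1, was at 2.11 in the olfactory bulb and 2.47 in the hippocampus, where NR4A1 was lower. IER5 was at 1.58 in the olfactory bulb and -1.20 in the pituitary.

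Of 12 delayed response genes, 11 were higher in the cortex (35.4% of all genes), 10 in the striatum (28.2%) and 12 in the amygdala (31.1%), and 11 were lower in the globus pallidus (31.8%). PTGS2, the inducible cyclooxygenase, was at 3.74 in the cortex and -1.93 in the hippocampus, and VGF, a secreted neuropeptide precursor, was at 2.42 in the pituitary. In DG against CA3, 9 of the 12 were lower and 2 higher, where 16.5% and 17% of all genes were. Of 14 upstream factors and kinases, 12 were higher in the cortex (35.4% of all genes), 11 in the hippocampus (31.6%) and 11 in the entorhinal and perirhinal cortex (31.5%), and 12 were lower in the substantia nigra (29.8%). NAB2, a corepressor of the EGR factors, was at 1.24 in the cortex and -1.98 in the substantia nigra. SRF was at 0.70 in the cortex and -0.71 in the substantia nigra.

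In the olfactory bulb all 5 heat shock genes were lower, from -0.17 (HSPD1) to -0.31 (HSPA8), where 31.5% of all genes were lower. In the cortex their median animal share was 56.9%, near that of the immediate early genes, with 82.1% for DNAJB1 and 77.2% for BAG3. The median was 28.2% for other rapid response genes, 32.4% for delayed response genes, 22.9% for upstream factors and kinases and 43.5% for 3 endothelial markers. Among genes of the wider lists, IER2 (50.4%), SIK1 (50%) and DUSP6 (59.5%) had large cortical animal shares, and NR4A3 (19.2%) did not.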

How the data were processed

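Per the labels and the study's methods, the authors sequenced rRNA-depleted, strand-specific RNA-seq libraries, trimmed those of poor read quality with Trim Galore 0.4.4, aligned the reads with HISAT2 2.0.5 and counted reads per gene with HTSeq 0.6.1. The deposited counts are whole numbers, not normalized. The strand and overlap options are not given in the sources used here, so reads of overlapping or antisense genes may be split. Symbols came from a table of gene IDs and, for 1231 genes, from the study's supplement. 18803 of 30807 genes had one. The 8 midbrain samples, left out as in the study, and the 33 ATAC-seq samples were not analysed here. JUN, EGR1 and EGR3 were not analysed here.

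CPM used TMM-scaled library sizes. Tests were edgeR 4.0.16 quasi-likelihood tests (R 4.3.3) after filterByExpr, with Benjamini-Hochberg adjustment over all genes tested. Sub-region tests had the animal as a block, as in the study. Region groups and lobes were summed within animals. Age and sex were fitted per region group, each with the other as a covariate. Variance was split on log2(CPM + 1). Alternatives were DESeq2 1.42.0 and its size factors, limma 3.58.1 on mean log2 values, no filter, no replicate block, no covariate, a pseudocount of 0.1, a variance-stabilizing transformation and leaving out each animal, the pituitary or the hypothalamus. Permutation tests and correlations used numpy 2.4.6, with ranks and the adjustment of the permutation p-values from scipy 1.17.1. Tables used pandas 2.3.3 and plots matplotlib 3.10.9, under Python 3.11.15.

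The replicate number is the animal. Deviations of samples of the same animal had a median r of 0.43 over 17121 genes, against -0.06 between animals. 0 pairs of samples had identical counts. Tests were checked on simulated data of 10000 genes with 200 changed 2-fold. The region group contrast recovered 200, the hippocampal contrast 197 and the age contrast 173. The members and gene lists were chosen with earlier results of these data known. Genes were named by rule: all members, the 10 genes most correlated with their mean over sub-region means and over remainders, and per list up to 3 genes with the highest and 2 with the lowest remainder correlation.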

Additional observations from a re-analysis of the deposited data

Results flagged for a closer look

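Of the 112 groups of 8 animals (7 genes by 16 region groups), 9 had an animal whose gap to the nearest other, as a share of the group's whole range, was above Dixon's 95% critical value for 8 samples. Gaps and ranges were taken on log2(CPM + 1), while the levels below are in CPM. Chance flags about 1 in 20 groups, and the 112 groups share animals and libraries.

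Rhesus 10 was the highest animal in 3 of the 9. JUNB in the cortex was 72.2 CPM against 41.2 CPM in the next animal (gap share 0.582). EGR2 in the cerebellum was 0.742 CPM against 0.290 CPM (0.542), which are levels of a few reads, and NPAS4 in the pituitary was 6.63 CPM against 2.53 CPM (0.542).

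Rhesus 6 was highest in the hypothalamus for EGR2, 12.8 CPM against 2.05 CPM (0.677), and for ARC, 39.5 CPM against 12.3 CPM (0.540), in the library with the highest neuron marker sum of the 8. Rhesus 3 was highest in the globus pallidus for EGR2, 3.55 CPM against 0.787 CPM (0.617), and for ARC, 6.54 CPM against 3.39 CPM (0.528). In 2 groups the animal stood below the rest. ARC in the entorhinal and perirhinal cortex was 14.2 CPM in Rhesus 2 against 24.7 CPM in the next lowest (0.547), and NR4A1 in the pons was 5.60 CPM in Rhesus 4 against 9.33 CPM (0.528).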

How the results depend on the processing

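Of 120 pairs of a gene and a comparison past the threshold, 82 stayed past it under every alternative run, and 0 of them changed sign (73 of 88 for region groups, 3 of 13 for lobes, 4 of 10 for the hippocampus and 2 of 9 for the striatum). Leaving out the replicate block, which pairs samples by animal, cut the calls to 4 of 7 between cortical sub-regions, 3 of 13 between lobes, 6 of 10 in the hippocampus and 3 of 9 in the striatum, and over all genes from 2849 to 473 in the limbic and from 1974 to 177 in the parietal lobe, 4465 to 909 in the temporal, 8111 to 3505 in the frontal and 9687 to 5950 in the occipital lobe, 4794 to 2341 for DG against CA1, 4952 to 2323 for DG against CA3, 5319 to 2681 for ACb against CN, 4573 to 2547 for CN against PUT, 136 to 18 in the cerebellum and 13 to 2 for CA1 against CA3. DESeq2 called 258 genes in the cerebellum and 76 for CA1 against CA3. Age and sex calls were 2 and 1 with DESeq2 against 0 and 0, and 0 to 2 for each with 1 animal left out, the 2 being without Rhesus 7. The median animal share of the 7 genes in the cortex was 30.1% to 60.3% with 1 animal left out, the lowest without Rhesus 10.

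ARC in the pituitary (0.04) turned to -0.065 with DESeq2, -0.63 with limma on mean log2 values (adjusted p 0.00293), -0.023 with no filter, and ranged from -0.55 to 0.23 with 1 animal left out, below 0 without Rhesus 8, 3 or 10. EGR2 in the hypothalamus (0.50) turned to -0.40 with limma and -0.60 without the sample of Rhesus 6, and ranged from -0.56 (without Rhesus 6) to 0.72 with 1 animal left out. FOSB in the pituitary (0.47) turned to -0.00075 with limma. Except where an alternative removes samples, the cause was not tested. Depth limits EGR2, NPAS4 and FOSB, with 69, 66 and 34 samples under 10 reads.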
